A study of Mus musculus with 6 samples.

Results

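The cell cycle genes of young mouse islets are described here as a set of 42 transcripts, taken by gene symbol from a table of 34245 genes measured by poly(A) RNA sequencing of whole isolated islets. They were split by role into 20 genes of mitosis, 11 of DNA replication, 3 of entry into S phase, 4 for the D cyclins with their kinase Cdk4, and 4 inhibitors of cyclin-dependent kinases. All 42 symbols were found once each. The mice were C57BL/6J animals aged 5 weeks, and both groups carried Rip1-Cre, a recombinase under the rat insulin promoter that acts mainly in beta cells, so that the other cells of an islet may keep the floxed allele. In the 3 KO animals the conditional Abca12 allele had been deleted by the recombinase (Abca12 tm1d). The 3 HET animals were Cre controls that carried the floxed allele in the heterozygous state. Each library has a code of its own, taken here as that of the animal, and levels are given as RPM, the reads of a gene per 1000000 reads of the library total.

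Library totals were 27447026 to 35511008 reads, and 3 reads corresponded to 0.0845 to 0.109 RPM. Summed over 10 beta cell markers such as Ins1, Ins2 and Iapp, the level was 108364 to 141301 RPM, so beta cell markers were high in every library. The share of exocrine tissue was uneven, with acinar marker sums of 33762 RPM in HET 1 and 14067 RPM in KO 2, but 460.0 RPM in HET 3. Abca12 itself had 2 reads in KO 1 and 0 in the other 5 libraries, too few to check the genotype labels. KO 2 held 13659 reads of Xist and also 1481 of the Y-linked gene Ddx3y, a combination of high counts that no other library had. Whether KO 2 pools animals is not given by the labels. KO 1 and HET 2 held 0 reads of Ddx3y, Eif2s3y, Kdm5d and Uty, and 9612 and 10494 reads of Xist. KO 3, HET 1 and HET 3 held 1, 5 and 1 reads of Xist, and 1470, 3156 and 1647 of Ddx3y. By these genes both groups held libraries of both sexes, and sex did not enter the fit. The first principal component, with 70.5% of the variance of all genes, separated the 3 libraries with the lowest animal codes (KO 1, KO 2 and HET 1) from the 3 with the highest (KO 3, HET 2 and HET 3).

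A dividing cell passes from growth into DNA synthesis when D cyclins with Cdk4 inactivate the retinoblastoma proteins and release E2F factors, which switch on the genes of replication. Genes of mitosis follow later, when complexes of B-Myb, FoxM1 and the MuvB core bind their promoters. Beta cells divide in young mice and nearly cease to do so in adults, and in mouse islets cyclin D2 is the D cyclin they depend on for that growth. Proliferating cells are a small fraction of an islet, and whole islets also hold endothelial cells, macrophages and other cells that can divide. In such bulk samples, fewer dividing cells and less RNA per dividing cell cannot be told apart.

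The promoters of the mitosis and replication genes differ in sequence, and 6 are shown because the levels of these 2 groups of genes differed in how they varied among the animals. Each is the stretch of 250 bases before the RefSeq start of the gene (GRCm38.p6), written along the gene's strand. The windows are chr7:135716380-135716629 on the minus strand for Mki67, chr11:99024190-99024439 on the minus strand for Top2a and chr10:69352913-69353162 on the minus strand for Cdk1. They are chr2:164769679-164769928 on the plus strand for Ube2c, chr1:128359706-128359955 on the minus strand for Mcm6 and chr8:75109259-75109508 on the plus strand for Mcm5. Capitals mark the core of the cell cycle homology region (CHR, TTTGAA), the CCAAT box (CCAAT) and 4 forms of the E2F element (TTTCCCGC, TTTGGCGC, TTTCGCGC and TTTGCCGC), each on either strand.
Mki67: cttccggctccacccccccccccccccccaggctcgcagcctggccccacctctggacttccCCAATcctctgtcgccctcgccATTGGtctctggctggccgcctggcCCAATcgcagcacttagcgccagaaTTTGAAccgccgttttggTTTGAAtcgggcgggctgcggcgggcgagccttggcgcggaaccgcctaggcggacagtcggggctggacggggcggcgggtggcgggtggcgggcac
Top2a: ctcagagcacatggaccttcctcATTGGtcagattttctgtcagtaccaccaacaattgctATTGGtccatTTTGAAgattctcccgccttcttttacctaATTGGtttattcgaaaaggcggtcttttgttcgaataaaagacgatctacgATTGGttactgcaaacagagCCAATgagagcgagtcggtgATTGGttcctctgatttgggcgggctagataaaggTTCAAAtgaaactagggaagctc
Cdk1: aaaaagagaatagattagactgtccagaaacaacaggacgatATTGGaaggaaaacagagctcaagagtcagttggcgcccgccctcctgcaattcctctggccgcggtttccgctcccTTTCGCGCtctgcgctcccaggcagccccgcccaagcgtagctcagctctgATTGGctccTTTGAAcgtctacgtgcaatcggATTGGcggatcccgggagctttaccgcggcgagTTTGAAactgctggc
Ube2c: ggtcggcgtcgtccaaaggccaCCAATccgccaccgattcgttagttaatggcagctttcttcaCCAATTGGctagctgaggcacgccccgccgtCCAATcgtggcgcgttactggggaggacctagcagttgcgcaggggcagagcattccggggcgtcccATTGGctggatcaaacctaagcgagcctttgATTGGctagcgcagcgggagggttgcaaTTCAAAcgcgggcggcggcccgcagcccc
Mcm6: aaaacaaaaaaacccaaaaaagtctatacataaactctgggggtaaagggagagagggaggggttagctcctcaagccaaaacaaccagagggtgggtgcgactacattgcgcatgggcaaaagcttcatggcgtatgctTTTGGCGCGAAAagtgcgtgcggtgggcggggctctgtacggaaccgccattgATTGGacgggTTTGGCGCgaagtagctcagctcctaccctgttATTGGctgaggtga
Mcm5: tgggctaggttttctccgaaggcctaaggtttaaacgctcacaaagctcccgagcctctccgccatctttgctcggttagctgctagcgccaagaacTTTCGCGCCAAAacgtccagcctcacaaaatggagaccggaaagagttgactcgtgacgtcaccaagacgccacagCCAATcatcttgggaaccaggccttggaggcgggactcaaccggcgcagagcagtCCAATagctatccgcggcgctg

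All 6 promoters hold CCAAT boxes, the 4 mitotic ones hold CHR cores, and E2F forms lie in both Mcm promoters and in that of Cdk1. The Mki67 promoter has 2 CHR cores and 3 CCAAT boxes, that of Top2a 2 and 6, that of Cdk1 2 and 3, and that of Ube2c 1 and 6, while Cdk1 also has 1 E2F form. One pair of CCAAT boxes of Ube2c overlaps on opposite strands. Mcm6 has 3 E2F forms and Mcm5 has 2, each promoter also has 2 CCAAT boxes and no CHR core, and in each one pair overlaps on opposite strands.

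Over RefSeq windows of 300 bases (250 before and 50 after the start), the table held 16 of the 20 mitosis genes and 10 of the 11 replication genes. A CHR core lay in 12 of 16 mitosis windows (75%), in 1 of 11 replication windows (9.09%) and in 17.9% of all 32851 windows. An E2F form lay in 1 of 16 mitosis windows (6.25%), in 4 of 11 replication windows (36.4%) and in 2.26% of all windows. CCAAT boxes were common to both, with 15 of 16 mitosis and 9 of 11 replication windows against 37.4% of all. The windows of 40 of 50 other mitosis genes held a CHR core in 30 of 43 cases (69.8%). These matches describe letters in a window and do not show that a factor binds there.

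Mitotic transcripts were scarce in these islets and were lowest by far in 1 of the KO animals. Summed over the 20 genes, the level was 35.5, 94.6 and 90.7 RPM in KO 1 to 3, and 94.1, 64.4 and 56.5 RPM in HET 1 to 3. The mean of the sums was 73.6 ± 33.0 RPM (SD, n = 3) for KO, and 71.7 ± 19.8 RPM (SD, n = 3) for HET. KO 1 thus held less than every HET library, while KO 2 and KO 3 lay near HET 1, the highest control. Of the 20 genes, 16 had their lowest level in KO 1, against 14.6% of all 14238 genes tested. The level in KO 1 was 13.2% to 83.5% of the mean of the other 5 libraries, with a median of 31.0%, and for 13 genes it was under 50%.

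**Figure D1:**
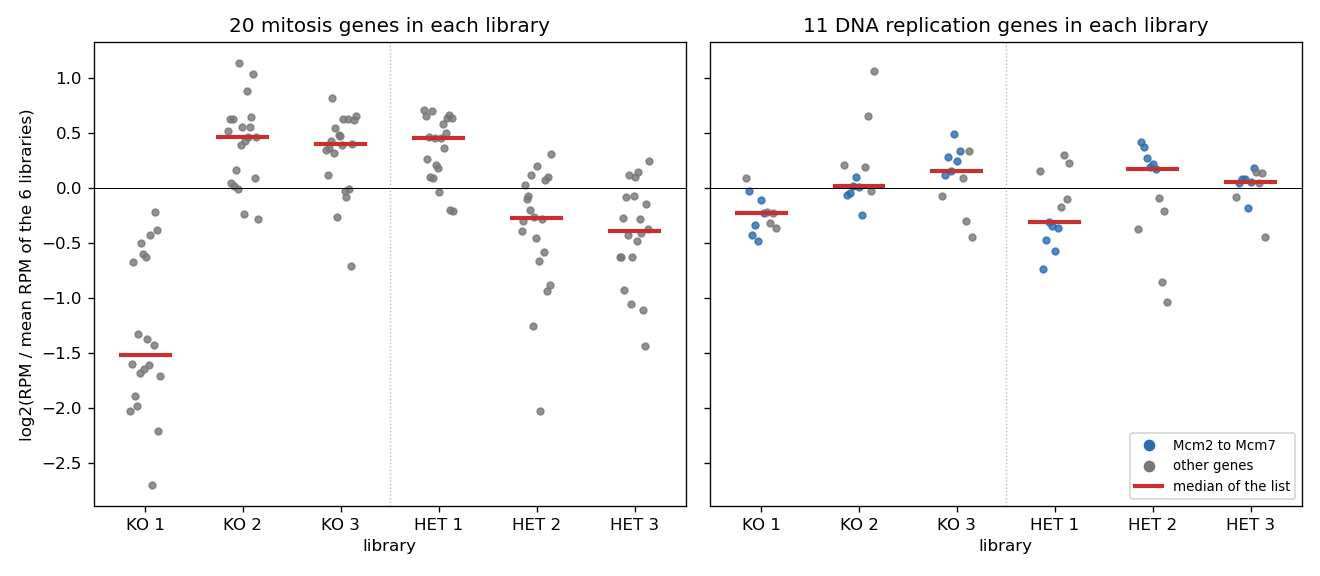
Level of each of 20 mitosis genes (left) and 11 DNA replication genes (right) in the 6 libraries, as log2 of its RPM over its mean RPM. Points are genes, blue for Mcm2 to Mcm7 and grey for the others, and red bars are the median of the list; in KO 1, 16 of the 20 mitosis genes are at their lowest level.

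Mki67, which encodes the proliferation antigen Ki-67 that coats mitotic chromosomes, showed this pattern most plainly among the abundant members. Mki67 (ENSMUSG00000031004.8, chromosome 7, 135689784 to 135716361, GRCm38) had 2.06, 12 and 10.6 RPM in KO 1 to 3, and 13.7, 6.36 and 5.40 RPM in HET 1 to 3. The 60 reads of KO 1 give an exact Poisson 95% interval of 1.57 to 2.65 RPM, which covers counting error only. KO 1 was below, and KO 2 and KO 3 were within, the range of the controls. On the log2(RPM + 1) scale used for every test, the KO minus HET difference was -0.19 (95% interval -1.60 to 1.22, limma unadjusted p = 0.755). Without KO 1 it was 0.48 (-0.45 to 1.4, unadjusted p = 0.259).

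Top2a encodes the topoisomerase that untangles sister chromatids. Top2a (ENSMUSG00000020914.17, chromosome 11, 98992943 to 99024189) had 2.81, 13.1 and 9.22 RPM in KO 1 to 3, and 13.4, 6.90 and 5.52 RPM in HET 1 to 3. The libraries stood in the same order as for Mki67, with HET 1 highest, KO 2 next and KO 1 lowest. The difference was -0.14 (95% interval -1.36 to 1.07, limma unadjusted p = 0.790), and without KO 1 it was 0.41 (-0.51 to 1.33).

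Cdk1, the kinase that drives entry into mitosis, had 1.10, 3.09 and 3.42 RPM in KO 1 to 3, and 4.46, 2.39 and 2.05 RPM in HET 1 to 3. The groups overlapped, and the difference was -0.19 (-1.01 to 0.63, limma unadjusted p = 0.603). Its partner Ccna2, cyclin A2, varied less, with 5.28, 8.68 and 10.9 RPM in KO 1 to 3, and 10.1, 8.59 and 6.97 RPM in HET 1 to 3. The difference for Ccna2 was -0.08 (-0.71 to 0.55, unadjusted p = 0.778). Ccna2 shares 12.5% of its exon bases with Exosc9 (19.3 RPM) on the opposite strand, and without strand information those reads cannot be assigned.

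The cyclins B, Ccnb1 and Ccnb2, which activate Cdk1 at mitosis, were at 0.480 and 0.411 RPM in KO 1. In the other 5 libraries Ccnb1 ranged from 0.935 to 2.76 RPM and Ccnb2 from 1.54 to 2.88 RPM. Cenpe, a kinesin of the kinetochore, had the widest spread of the 20 genes, with 7 reads (0.240 RPM) in KO 1 and up to 2.40 RPM in KO 3. Tpx2, which organises spindle microtubules, was lowest in KO 1 at 0.617 RPM and highest in HET 1 at 4.43 RPM. The polo kinase Plk1 ranged from 0.445 RPM in KO 1 to 2.05 RPM in KO 2, and Cenpf, a large kinetochore protein, from 1.06 RPM in KO 1 to 4.47 RPM in KO 2. For each of these 6 genes KO 1 was the lowest library.

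Ube2c, Cdc20 and Aurka gave a flatter picture outside KO 1. They were the 3 of the 20 mitosis genes for which the higher animal codes all lay above the lower codes. That order held for 31.3% of all genes tested. Ube2c, the ubiquitin-conjugating enzyme of the anaphase-promoting complex, had 0.925, 2.49 and 4.77 RPM in KO 1 to 3, and 2.62, 3.75 and 3.59 RPM in HET 1 to 3. Its difference was -0.34 (-1.23 to 0.55, limma unadjusted p = 0.399), and without KO 1 it was 0.07 (-0.65 to 0.78). Cdc20, an activator of the same complex, was at 0.925 RPM in KO 1 and between 2.96 and 4.34 RPM elsewhere. The aurora kinase Aurka, of the spindle poles, ranged only from 2.23 RPM in KO 1 to 4.52 RPM in KO 3.

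The members that were not lowest in KO 1 were Bub1, Bub1b, Birc5 and Kif11. Kif11, the kinesin that pushes spindle poles apart, had 3.43, 8.20 and 2.44 RPM in KO 1 to 3, and 6.30, 2.08 and 1.48 RPM in HET 1 to 3. It was the one mitosis gene for which the 3 libraries of the lower animal codes all lay above the 3 of the higher codes. Its difference between genotypes was 0.44 (-0.72 to 1.61, limma unadjusted p = 0.402). Leaving out 1 library moved it to 0.91 (without HET 1), 0.74 (KO 3), 0.29 (HET 2), 0.13 (HET 3) or 0.03 (KO 2). Birc5, which encodes the chromosomal passenger survivin, was lowest in HET 2, at 0.282 RPM (10 reads) against 0.377 RPM (11 reads) in KO 1. The checkpoint kinase Bub1 was lowest in HET 2 at 0.366 RPM, and Bub1b, its relative, in HET 3 at 1.45 RPM, next to 1.47 RPM in KO 1.

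The remaining members were Aurkb, Cenpa and Kif20a. Aurkb, the kinase of the chromosomal passenger complex, had 9 reads (0.308 RPM) in KO 1 and up to 1.24 RPM in KO 3. Cenpa, the histone variant of centromeres, ranged from 2.26 RPM in KO 1 to 4.2 RPM in KO 2. Kif20a, a kinesin of the dividing midzone, had the narrowest range of the 20, from 8.46 to 14.5 RPM. Kif20a shares 29.3% of its exon bases with Cdc23 (42.7 RPM) on the opposite strand, so part of its reads may belong to that gene.

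Mitosis genes outside the member set followed the same library. Of 48 further genes of spindle, kinetochore, chromosome condensation and mitotic control, 33 (68.8%) had their lowest level in KO 1, and 23 (47.9%) had their highest in KO 2, against 14.6% and 20.1% of all genes tested. Under median-of-ratios scaling 31 of 48 and 16 of the 20 members were lowest in KO 1, against 12.1% of all genes, and under upper quartile scaling 31 and 16 were, against 11.1%. Foxm1, the activator of late cell cycle genes, was chosen for mention after its values were seen. It had 1.34, 4.07 and 3.21 RPM in KO 1 to 3, and 3.59, 3.63 and 2.87 RPM in HET 1 to 3. Of the 39 genes of this list that were tested, 19 had higher and 20 lower means in KO (median log2 difference -0.03). Without KO 1 the split was 33 to 6 (median 0.27). As 26 of the 39 were lowest in KO 1, leaving it out raised their KO means by construction.

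**Figure D2:**
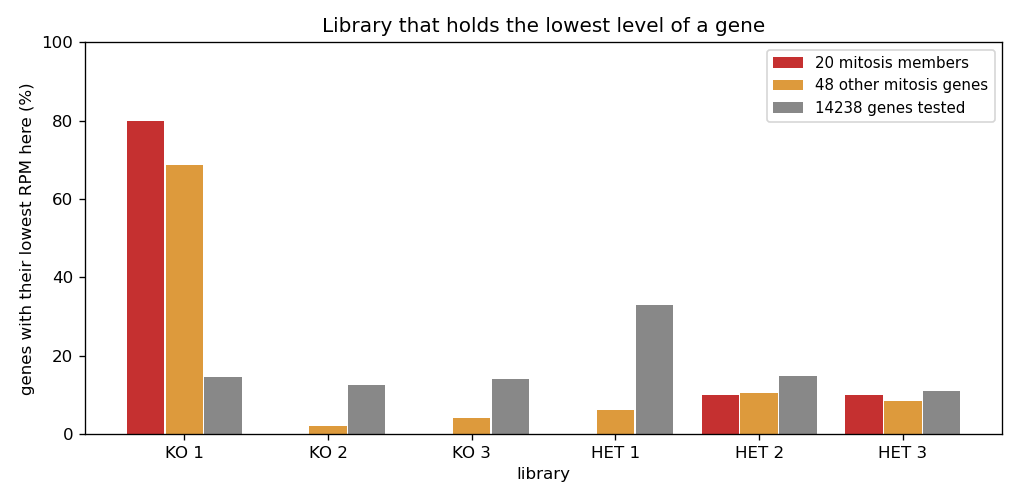
Share of genes (%) whose lowest RPM lies in each library, for 20 mitosis members (red), 48 other mitosis genes (orange) and all 14238 genes tested (grey). KO 1 holds the lowest level of 80% of the mitosis members and 14.6% of all genes.

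Marker sums of the other cell types that could divide in an islet preparation were not lowest in KO 1. Single genes made up much of some of these sums. Beta cell markers summed to 141301 RPM there, the highest of the 6 libraries. Ins1 and Ins2 made up 40908 and 85827 RPM of the beta cell sum. Of the 10 markers only these were highest in KO 1, and the others, such as Iapp, Pdx1 and Nkx6-1, peaked in other libraries. Endothelial markers (12 of 12 found, Pecam1 and Cdh5 among them) summed to 320.7 RPM in KO 1 and to 252.8 to 310.4 RPM in the others. Macrophage markers (14 of 14) summed to 272.0 RPM in KO 1 and to 193.9 to 224.4 RPM in the others. Cd74 made up 139.9 RPM of that sum, and without it KO 1 held 132.1 RPM, inside the 102.4 to 145.8 RPM of the others. Cd68 was at 4.69, 3.50 and 16.9 RPM in KO 1 to 3, and at 3.56, 28.4 and 29.5 RPM in HET 1 to 3. It was thus higher in the higher animal codes, and KO 1 was not its lowest library. Stellate and fibroblast markers (10 of 10) summed to 105.7 RPM in KO 1, inside the range of 63.7 to 184.5 RPM of the others. Rgs5 made up 59.1 RPM of the KO 1 sum. It was at 77.9 RPM in KO 2, 45.4 RPM in HET 1 and 6.88 to 13.1 RPM in KO 3, HET 2 and HET 3. Without Rgs5 the sum was lowest in KO 1, although Pdgfrb (4.39 RPM) was the only single marker of this list lowest there. Lymphocyte markers were near the detection limit, with 4 of 10 at 0 in every library, Cd3e and Cd3d among them, and sums of 1.97 to 4.49 RPM. Acinar markers (15 of 15) varied far more, with a sum of 460.0 RPM in HET 3 and of 33762 RPM in HET 1, and KO 1 held 3735 RPM, the third highest.

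**Figure D3:**
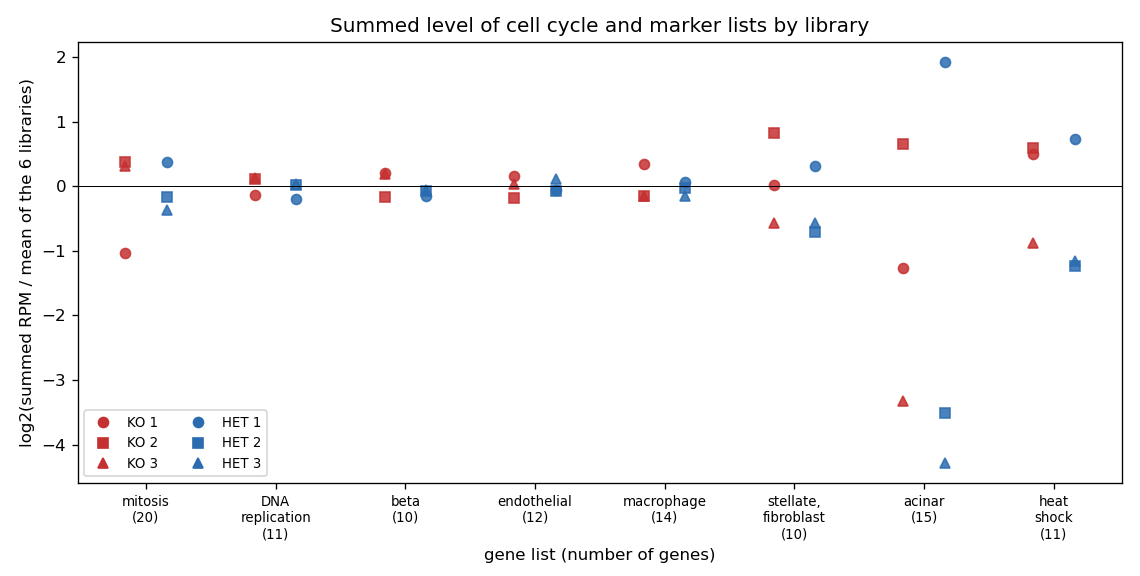
Summed level of mitosis, DNA replication and marker lists in each library, as log2 of the sum over its mean in the 6 libraries (KO red, HET blue; the symbol gives the replicate). KO 1 lies lowest for mitosis and highest for beta, endothelial and macrophage markers, the beta sum through Ins1 and Ins2 and the macrophage sum through Cd74.

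DNA replication genes had a higher summed level than mitosis genes and a narrower range between libraries. Their summed level was 103.8, 123.3 and 124.0 RPM in KO 1 to 3, and 99.5, 114.7 and 116.0 RPM in HET 1 to 3. The highest library exceeded the lowest by a ratio of 1.25, against 2.66 for the mitosis genes. That sum joins parts with different orders: the ratio was 1.68 for the 6 Mcm genes (HET 1 lowest, HET 2 highest) and 1.52 for the other 5 (HET 2 lowest, KO 2 highest). The mean of the sums was 117.0 ± 11.5 RPM (SD, n = 3) for KO, and 110.0 ± 9.18 RPM (SD, n = 3) for HET. KO 1 held the lowest level of 4 of the 11 genes, as did HET 1, and its levels were 67.6% to 107.8% of the mean of the other 5 libraries.

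Pcna, the sliding clamp of DNA polymerase, was the most abundant member of this group both in RPM and per exon length, at 12.5 RPM per kb of exon. Pcna (ENSMUSG00000027342.14, chromosome 2, 132249162 to 132253314) had 31.8, 34.6 and 28.4 RPM in KO 1 to 3, and 33.3, 23.1 and 28.2 RPM in HET 1 to 3. The ranges of the groups overlapped, with a difference of 0.17 (-0.26 to 0.60, limma unadjusted p = 0.386). Its processed copy Pcna-ps2 held a mean of 0.0426 RPM.

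The 6 subunits of the Mcm helicase, Mcm2 to Mcm7, which unwind DNA at the fork, had their own order of libraries. Mcm2 had 10.9, 10.7 and 12.1 RPM in KO 1 to 3, and 6.66, 14.8 and 11.5 RPM in HET 1 to 3. HET 1, the highest library for Mki67 and Top2a, was the lowest for Mcm2, and HET 2 was the highest. The difference was 0.09 (-0.55 to 0.72, limma unadjusted p = 0.752). Without HET 1 it was -0.20, and without HET 2 it was 0.32.

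Mcm6, the most abundant subunit per exon length, had 14.7, 16 and 18.8 RPM in KO 1 to 3, and 10.6, 18.4 and 16.5 RPM in HET 1 to 3. Its promoter, printed before, holds 3 E2F forms. Mcm5 had 3.32, 4.98 and 6.52 RPM in KO 1 to 3, and 3.65, 5.32 and 4.10 RPM in HET 1 to 3. HET 1 was the lowest library for Mcm6 and KO 1 for Mcm5, and KO 3 was the highest for both. Mcm3 ranged from 3.30 to 5.91 RPM, Mcm4 from 8.53 to 13.0 RPM and Mcm7 from 9.57 to 15.6 RPM. Mcm7 shares 7.25% of its exon bases with Ap4m1 (27.1 RPM, opposite strand).

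Summed over the 6 subunits, the level was 51.4, 57.4 and 70.5 RPM in KO 1 to 3, and 42.5, 71.4 and 62.2 RPM in HET 1 to 3. For 5 of the 6 the 3 libraries of the higher animal codes lay above the 3 of the lower codes, the exception being Mcm5. That order was common: 31.3% of all genes tested had it, and 16.8% had the reverse. Among the 39 members that passed the filter, 10 were higher in the higher codes and 3 were lower. Of the 6 subunits, 4 were lowest in HET 1, where 32.9% of all genes tested were lowest. KO 1 was lowest for the other 2, where 14.6% of all genes were lowest. With median-of-ratios scaling 2 of the 6 were lowest in HET 1 (17.8% of all genes) and 3 in KO 1 (12.1%). With upper quartile scaling 3 were lowest in HET 1 (22.7%) and 3 in KO 1 (11.1%).

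Acinar markers and heat shock proteins moved along the same split, and their part in the Mcm levels was not tested. Acinar markers summed to 3735, 14067 and 33762 RPM in the lower codes (KO 1, KO 2 and HET 1) and to 460.0 to 898.2 RPM in the higher codes. Heat shock proteins (11 of 11 found) summed to 5830, 6215 and 6794 RPM in the lower codes and to 1737 to 2239 RPM in the higher codes.

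Genes of nucleotide supply split between steady and variable members. Rrm1, the large subunit of ribonucleotide reductase, kept within 12.2 to 16.2 RPM. Rrm2, the small subunit whose level rises in S phase, had 2.16, 4.24 and 2.19 RPM in KO 1 to 3, and 3.33, 1.49 and 2.77 RPM in HET 1 to 3. The difference for Rrm2 was 0.12 (-0.57 to 0.82, limma unadjusted p = 0.690). Tk1, the thymidine kinase of S phase, had 2.47, 6.62 and 2.33 RPM in KO 1 to 3, and 3.72, 1.55 and 2.32 RPM in HET 1 to 3, so that KO 2 stood well above the rest. The difference for Tk1 was 0.38 (-0.49 to 1.25, unadjusted p = 0.344), and -0.01 without KO 2. Tyms, the thymidylate synthase, ranged from 3.70 to 5.47 RPM.

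The 3 genes of S phase entry were all highest in HET 1. Ccne1, cyclin E1, had 2.23, 2.32 and 1.60 RPM in KO 1 to 3, and 2.55, 2.39 and 1.90 RPM in HET 1 to 3, a difference of -0.11 (-0.57 to 0.36, limma unadjusted p = 0.602). Ccne2, cyclin E2, had 6.17, 7.06 and 7.83 RPM in KO 1 to 3, and 8.63, 5.18 and 4.34 RPM in HET 1 to 3, a difference of 0.23 (-0.36 to 0.82, unadjusted p = 0.398). For Ccne2 HET 1 alone kept the groups from separating, so a larger difference without it was set by the choice of library. That difference was 0.48 (limma unadjusted p = 0.0465, adjusted p = 0.415). In the same fit 1702 of 14238 genes had an unadjusted p under 0.05. Without HET 3 the difference was 0.05. The exons of Ccne2 overlap those of Ints8 (24.6 RPM, opposite strand) over 17.4% of their bases. E2f1, the activator of replication genes, had 8.98, 9.68 and 8.53 RPM in KO 1 to 3, and 11.1, 7.94 and 9.80 RPM in HET 1 to 3, a difference of -0.07 (-0.50 to 0.36, unadjusted p = 0.732). KO 1 lay at 93.3% to 103.4% of the mean of the other libraries for these 3 genes.

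Cyclin D2 and Cdk4 were the most abundant members of the whole set per exon length. Per kb of exon, the mean level was 37.4 RPM for Ccnd2, 35.1 for Cdk4, 23.1 for Ccnd1 and 3.12 for Ccnd3. The ranges over the 6 libraries were 29.4 to 49.7 RPM per kb for Ccnd2 and 26.2 to 43.9 for Cdk4, which overlap. Ccnd1 spanned 15.9 to 26.6 RPM per kb and Ccnd3 2.84 to 3.46, so Ccnd3 lay below the other 3 genes in every library.

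Ccnd2 (ENSMUSG00000000184.12, chromosome 6, 127125162 to 127152193) had 289.7, 431.9 and 318.9 RPM in KO 1 to 3, and 467.3, 325.2 and 276.5 RPM in HET 1 to 3. HET 1 and KO 2 stood above the other 4 libraries, as they did for Top2a, and the groups overlapped. The difference was -0.02 (-0.63 to 0.58, limma unadjusted p = 0.927), and 0.09 without KO 1. Ccnd1, cyclin D1, had 75.1, 103.2 and 117.8 RPM in KO 1 to 3, and 125.2, 117.7 and 112.9 RPM in HET 1 to 3. KO 1 was low for Ccnd1, and the difference was -0.29 (-0.76 to 0.19, unadjusted p = 0.201), or -0.10 without KO 1. Ccnd1 shares 23.4% of its exon bases with its neighbour LTO1 on the opposite strand.

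Ccnd3, cyclin D3, was the steadiest member, with 26.9, 26 and 27.4 RPM in KO 1 to 3, and 24.9, 28.8 and 30.4 RPM in HET 1 to 3. Its difference was -0.06 (-0.42 to 0.30, limma unadjusted p = 0.707). Cdk4 had 101.6, 91.0 and 142.6 RPM in KO 1 to 3, and 85.2, 123.8 and 140.5 RPM in HET 1 to 3. The libraries of the higher animal codes were above those of the lower codes for Cdk4, as for 5 of the Mcm genes, and each side held both genotypes. The difference between genotypes was -0.06 (-0.65 to 0.54, unadjusted p = 0.831), and 0.14 with the animal code side as a block. Cdk4 shares 19.7% of its exon bases with Tspan31 (54.4 RPM, opposite strand).

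Among the inhibitors, Cdkn1a and Cdkn1b were well expressed and Cdkn2a was nearly absent. Cdkn1a, the p53 target that halts the cycle after damage, had 84.9, 92.0 and 83.0 RPM in KO 1 to 3, and 127.9, 79.1 and 93.0 RPM in HET 1 to 3. HET 1 was high, the other 5 libraries lay close together, and the difference was -0.18 (-0.66 to 0.31, limma unadjusted p = 0.421), or 0.01 without HET 1. Cdkn1b, the inhibitor that restrains Cdk2 in resting cells, had 44.7, 49.7 and 57.4 RPM in KO 1 to 3, and 50.2, 40.4 and 43.0 RPM in HET 1 to 3. Its difference was 0.18 (-0.22 to 0.58, unadjusted p = 0.331).

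Cdkn2c, an inhibitor of Cdk4 and Cdk6, had 3.43, 6.52 and 5.57 RPM in KO 1 to 3, and 7.86, 4.59 and 6.12 RPM in HET 1 to 3. KO 1 was lowest, and the difference was -0.23 (-0.86 to 0.40, limma unadjusted p = 0.424), or -0.01 without KO 1. Cdkn2a, the locus of the senescence inhibitors Ink4a and Arf that accumulate in ageing islets, was counted with 11 reads in KO 1, 6 in KO 2 and 1 in KO 3, against 3 in HET 1, 8 in HET 2 and 13 in HET 3. Its level was at most 0.392 RPM, the groups overlapped, and a gene total does not separate the transcripts of Ink4a and Arf. Cdkn2a, Bub1 and Aurkb had means under 1 RPM and did not enter the test.

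**Figure D4:**
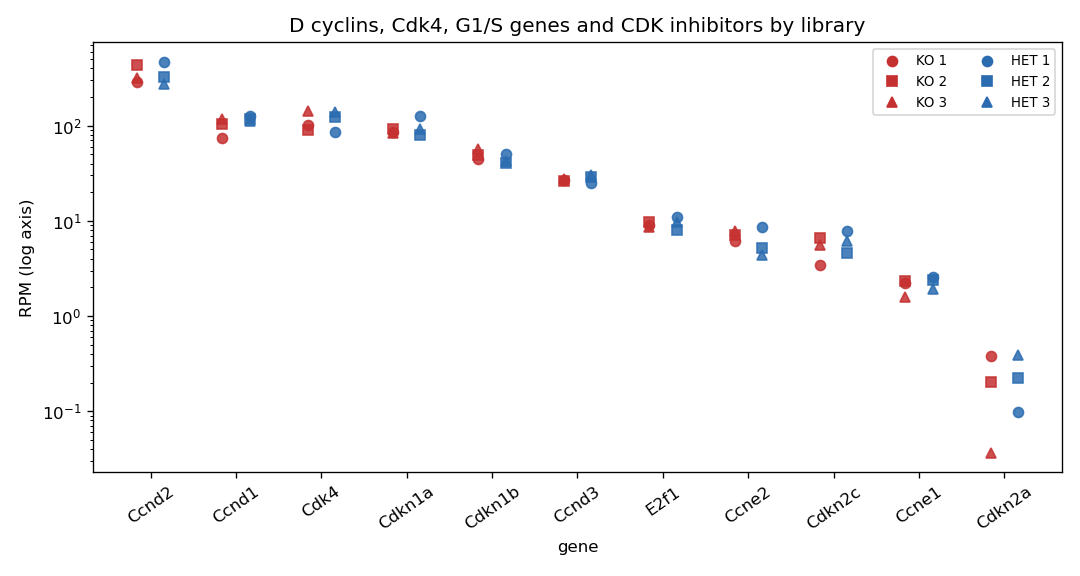
Level of the D cyclins, Cdk4, S phase entry genes and CDK inhibitors in each library, in RPM on a log axis (KO red, HET blue; the symbol gives the replicate). The groups overlap for every gene, Ccnd2 lies at 276.5 to 467.3 RPM, and Cdkn2a lies at or below 0.392 RPM.

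No difference between KO and HET islets in a member of the set exceeded the spread among libraries. Of the 39 members tested, 0 passed an adjusted p of 0.05 in limma with Benjamini-Hochberg adjustment over 14238 genes, where 0% of all genes passed. At an unadjusted p under 0.05 there were also 0 of 39, against 1.76% of all genes. Without KO 1 there were 0 of 39 against 0.59%, and limma-voom gave 0 of 39 against 1.78%, with 0 adjusted calls among all genes in each. The ranges of the 2 groups overlapped for 42 of the 42 members, the 3 untested ones included. They did not overlap for 5.74% of the genes tested, a share that comes to only a few genes in a set of 42. Over the 39 genes 17 had higher and 22 lower means in KO, with differences of -0.34 (Ube2c) to 0.44 (Kif11). Intervals were widest for variable genes of mitosis such as Mki67 (-1.60 to 1.22) and Kif11 (-0.72 to 1.61), and narrower for others such as Kif20a (-0.41 to 0.63).

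By role, the median log2 difference was -0.05 for mitosis (7 higher, 11 lower), 0.09 for DNA replication (8 and 3) and -0.07 for S phase entry (1 and 2). It was -0.06 for D cyclins with Cdk4 (0 and 4) and -0.18 for the CDK inhibitors (1 and 2), beside 0.01 over all genes tested. The sign for mitosis turned with 2 libraries. Without KO 1, 17 of 18 genes had higher means in KO (median 0.34, beside 0.03 over all genes). As 16 of the 20 mitosis genes were lowest in KO 1, leaving it out raised their KO means by construction. Without HET 1, 14 of 18 had higher means in KO (median 0.18, beside -0.05). The median for mitosis was -0.22 without KO 2, -0.27 without KO 3, -0.12 without HET 2 and -0.15 without HET 3, and -0.14 by limma-voom. Without KO 1 the replication genes had 11 of 11 higher means (median 0.17), and without HET 1 they had 5 of 11 (median -0.01).

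**Figure D5:**
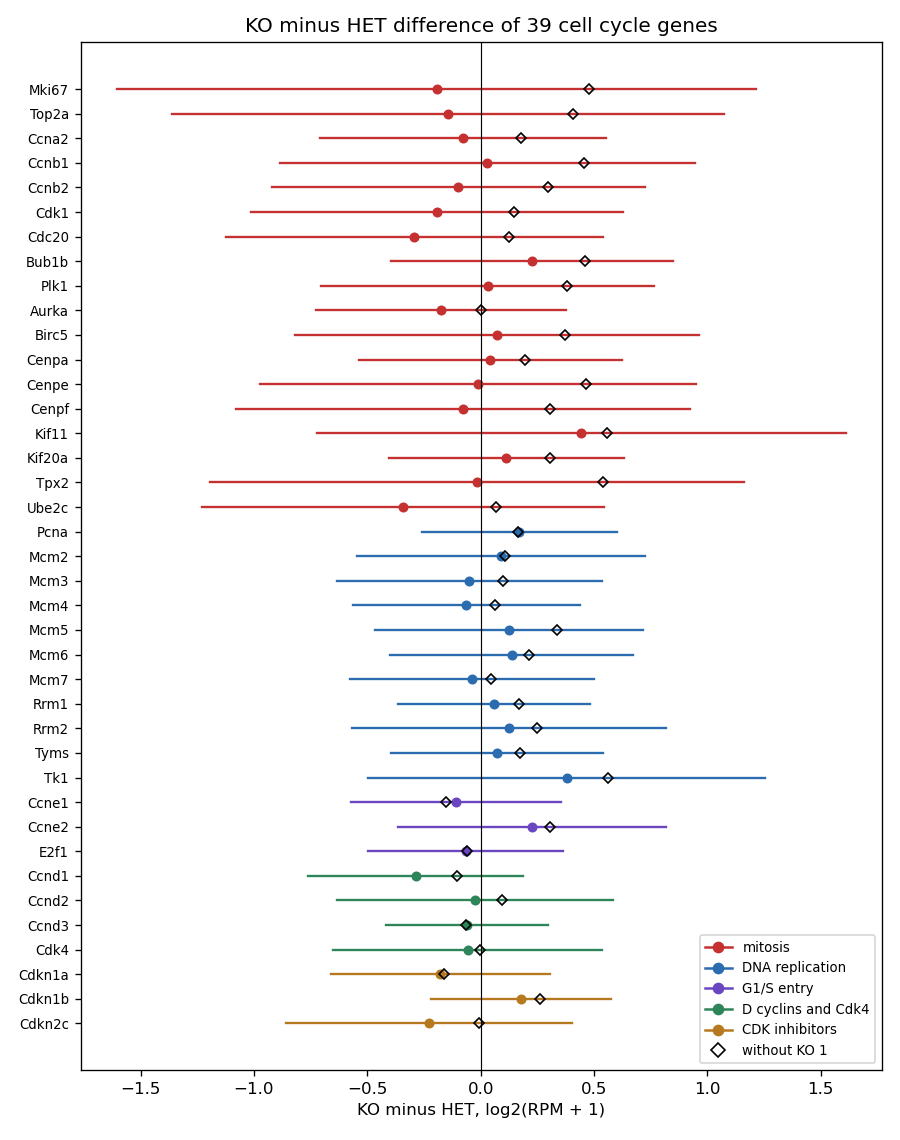
KO minus HET difference of 39 cell cycle genes on the log2(RPM + 1) scale, with 95% intervals from limma (coloured by role) and the value without KO 1 (open diamonds). Every interval spans 0, and 17 of 18 mitosis diamonds lie to the right of 0. KO 1 was the lowest library for 16 of the 20 mitosis genes, so leaving it out raised their KO means by construction.

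The wider cell cycle lists gave no call either. Of 37 other replication genes 21 had higher means in KO (median 0.04), and of 23 other regulators of S phase entry 14 did (median 0.06). The genes with the lowest p in their lists were Cit, the citron kinase of cytokinesis, at 0.65 (0.03 to 1.27, limma adjusted p = 0.9998), and Kif15, a spindle kinesin, at 0.35 (-0.23 to 0.93). For Cit the groups did not overlap (8.31 to 16.4 RPM in KO, 5.56 to 8.14 RPM in HET), as for 5.74% of all genes tested. Pold2, a polymerase delta subunit, was at -0.50 (-1.11 to 0.12). Rbl1 and Tfdp1, partners of E2F proteins, were at -0.27 (-0.72 to 0.18) and -0.21 (-0.59 to 0.17).

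Other inhibitors, and a list of regulators known from beta cell growth that includes the members Birc5, Ccnd2 and Cdkn1b, gave no adjusted call, although values such as those of Igf2bp2 and Cdkn1c were larger than that of any of the 39 members. Cdkn1c, an imprinted inhibitor, was at 0.47 (0.02 to 0.93, limma adjusted p = 0.9998) from levels of 0.663 to 1.75 RPM, and Cdkn2b at -0.08 (-0.74 to 0.58). Of 15 tested regulators of beta cell proliferation 10 had higher means in KO (median 0.04). Igf2bp2, an RNA-binding protein gene, had the lowest p of these, at 0.53 (0.09 to 0.97, adjusted p = 0.9998), and Men1, the menin tumour suppressor, was at -0.29 (-0.80 to 0.23).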

How the data were processed

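Poly(A) libraries of whole islets were sequenced for 3 KO and 3 HET mice. The submitters' processing notes name HISAT2, DESeq2 and the build GRCm38 with no role or version. How reads were counted, with which annotation and strand setting, is not given in the sources used here. Deposited by the authors were log2 RPM values per gene and library, with genes without reads written as 0.9 read. Dividing by the value of 1 read recovered whole reads (within 0.01) for 100% of the 93649 values below 1000 reads, and with them the library totals. A count test had been planned for raw counts only, so limma was used, with limma-voom on recovered reads as an alternative.

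Replicates were numbered in the order of the records. No 2 libraries of a group agreed within sampling noise (chi-square per degree of freedom 17.8 to 227.5). P-values measure the spread between these samples, which may be technical in part.

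The test was limma 3.58.1 (R 4.3.3) with trend and robust moderation on log2(RPM + 1), for the 14238 genes whose mean reached 1 RPM. It was tested on simulated data. Exon lengths, overlaps and identifiers came from GENCODE M21, with coordinates identical for 85.9% of genes; Kif20a and Cdkn1a were matched by symbol. Promoters came from RefSeq. Figures used matplotlib 3.10.9.

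Members and lists were chosen with earlier results of these data known. Full values were given for 18 members fixed by name and the 2 mitosis and 2 replication genes with the lowest p, and differences for the 2 lowest of each list of further cell cycle genes, of which 1 gene is not reported here.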

Additional observations from a re-analysis of the deposited data

How the results depend on the processing

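No gene was called under any of 14 alternatives (lowest adjusted p 0.0965, with the animal code side as a block), and no list median moved by more than the spread between libraries when all 6 libraries were kept. The animal code split was noticed in an earlier analysis of these data, and the scaling of the lowest-library counts was added after seeing the data. Of 160 values for 20 named members under 8 such alternatives, 157 kept their direction. The other 3 were Rrm2 (-0.018) and Cdk4 (0.14) with the block and Cdk4 (0.024) with acinar markers as a covariate. The cause was not tested.

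Leaving out 1 library at a time, median log2 differences ranged from -0.27 to 0.34 for mitosis, -0.0057 to 0.17 for DNA replication, -0.11 to 0.032 for S phase entry, -0.19 to -0.033 for D cyclins with Cdk4 (-0.16 without KO 3, -0.19 without HET 1) and -0.33 to 0.013 for the inhibitors. Single genes that turned sign ranged from -0.57 to 0.48 for Mki67, -0.54 to 0.41 for Top2a, -0.28 to 0.18 for Ccna2, -0.39 to 0.15 for Cdk1, -0.73 to 0.066 for Ube2c, -0.20 to 0.32 for Mcm2, -0.12 to 0.29 for Rrm2 and -0.0084 to 0.61 for Tk1. The same held for Ccne1 (-0.20 to 0.0013), E2f1 (-0.18 to 0.032), Ccnd2 (-0.19 to 0.19), Cdk4 (-0.26 to 0.093) and Cdkn1a (-0.33 to 0.013). Those that kept their sign ranged from 0.030 to 0.91 for Kif11, 0.051 to 0.48 for Ccne2, 0.038 to 0.29 for Pcna, 0.085 to 0.27 for Cdkn1b, -0.42 to -0.10 for Ccnd1, -0.14 to -0.00058 for Ccnd3 and -0.40 to -0.0065 for Cdkn2c. The count of genes with an unadjusted p under 0.05, 250 with all libraries, was 84 (without KO 1 or HET 3) to 1702 (without HET 1), 564 without a filter, 767 with the block and 982 with the acinar covariate.

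No paired analysis was possible because the labels used here give no pairing of KO with HET animals. Genes with few reads, such as Cdkn2a, Aurkb and Bub1, are limited by depth.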
